A study of Homo sapiens with 16 samples.

Results

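Transcript levels of 48 genes of the DNA damage checkpoint, homologous recombination and the Fanconi anemia pathway were examined in KG-1 cells, an established line of myeloblast-like suspension cells from human acute myeloid leukemia (AML). The 48 symbols were listed by pathway, with earlier results of these data known, each was matched to its Ensembl identifier in the GENCODE annotation, and all 48 were found among the 43836 rows of the deposited count table and tested in every comparison. They comprised 11 checkpoint kinases and clamp factors, 11 genes of break ends and of the chromatin around breaks, 5 genes of the BRCA complexes, 8 further recombination factors (RAD51B, RAD51C, RAD51D, XRCC2, XRCC3, RAD52, RAD54L and RAD54B), 11 genes of the Fanconi core, its ubiquitin-conjugating enzyme and the FANCD2-FANCI pair, and 2 RecQ helicases.

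The study compared 8 groups of 2 RNA-seq libraries each. KG-1 cells of the control genotype (a non-target lentiviral vector, per the methods on the knockdown) received 0.3% DMSO, 0.75 μM AraC, 100 nM venetoclax or 50 μM STL427944 for 48 h, or 30 μM MK-2206 for 24 h. KG-1 cells carrying an anti-FOXM1 shRNA vector (FOXM1-KD) received DMSO, AraC or venetoclax at the same doses for 48 h. Transduced cells were selected with puromycin, and whether pools or clones were kept is not given in the sources used here. The labels put MK-2206 under the control genotype without stating transduction, and its libraries differed from the DMSO libraries in time as well as in drug. AraC (cytarabine) is a nucleoside analog that stalls DNA synthesis, venetoclax inhibits BCL2, MK-2206 is an allosteric pan-AKT inhibitor, STL427944 is described as a FOXM1 inhibitor, and FOXM1 is a transcription factor of proliferating cells.

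In this pathway, stalled forks and broken ends activate the kinases ATR and ATM, which signal through CHEK1 and CHEK2 to halt the cell cycle. The MRE11-RAD50-NBN complex with RBBP8, EXO1 and DNA2 trims broken ends, while H2AX, MDC1, RNF8 and RNF168 mark the flanking chromatin. The BRCA proteins and further recombination factors then act on the trimmed ends, and the Fanconi core complex with UBE2T attaches ubiquitin to FANCD2 and FANCI where strands are cross-linked. Many of these genes are transcribed mainly in S phase, and AML is treated with drugs that act on replicating DNA.

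A RefSeq promoter window (GRCh38.p14, 250 bases before to 50 bases after the annotated start) was matched for 41 of the 48 genes. The letters TTTCCCGC, TTTCGCGC, TTTGCCGC or TTTGGCGC (E2F-type, searched on both strands) occurred in 6 of these 41 windows (14.6%), those of EXO1, TOPBP1, XRCC2, FANCA, FANCC and FANCD2, against 4.5% of all 15276 promoters in the table. CCAAT occurred in 46.3% of the matched members and 36.6% of all promoters, and TTTGAA or TTCGAA (CHR-type) in 14.6% and 13.5%. Matched genes were also split by their AraC response at adjusted p below 0.1 (edgeR test given below). In control cells an E2F-type word occurred in 1 of 14 that rose, 0 of 3 that fell and 5 of 24 others. In FOXM1-KD cells the numbers were 2 of 8, 0 of 2 and 4 of 31. A link between these words and the responses was not tested. The EXO1 window held a single match, so no searched word overlapped another there. The windows printed here belong to the gene among the 48 that AraC raised past 2-fold in both genotypes and to the gene among them with the largest difference between FOXM1-KD and control cells. EXO1 lies on the plus strand (chr1:241847954-241848253) and RNF168 on the minus strand (chr3:196503719-196504018). Capitals mark the E2F-type word, which begins at base 5 after the EXO1 start, and the RNF168 window held none of the words.
EXO1: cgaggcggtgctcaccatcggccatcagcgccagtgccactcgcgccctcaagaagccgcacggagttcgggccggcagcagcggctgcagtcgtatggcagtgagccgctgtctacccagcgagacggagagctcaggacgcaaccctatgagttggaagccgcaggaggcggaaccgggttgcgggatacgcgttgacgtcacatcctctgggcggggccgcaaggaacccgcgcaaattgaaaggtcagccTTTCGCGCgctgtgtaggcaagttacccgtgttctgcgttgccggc
RNF168: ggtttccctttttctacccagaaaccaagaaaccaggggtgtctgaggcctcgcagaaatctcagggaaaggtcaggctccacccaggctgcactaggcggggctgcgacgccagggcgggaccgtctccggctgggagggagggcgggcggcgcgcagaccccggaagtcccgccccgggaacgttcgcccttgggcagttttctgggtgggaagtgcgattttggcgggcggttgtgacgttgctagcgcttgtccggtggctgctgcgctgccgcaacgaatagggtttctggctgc

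The libraries held 7351755 to 21362546 counts (median 18106217.5), with the lowest totals in the 2 MK-2206 libraries. Mitochondrial genes took 6.68% and 18.37% of counts there and 1.32% to 3.05% elsewhere. Despite the low totals, 21430 and 24957 genes had a count in the MK-2206 libraries, against 18674 to 20568 in the others. FOXM1 itself, the targeted gene, stood at 140 and 138 CPM (counts scaled to library size after the trimmed mean of M-values, TMM) in control DMSO and at 48.8 and 81.8 in FOXM1-KD DMSO. Its log2 difference from control was -1.08 ± 0.28 in DMSO (edgeR adjusted p = 0.056), -0.56 ± 0.19 under AraC (adjusted p = 0.0124) and -1.20 ± 0.39 under venetoclax (adjusted p = 0.0113); ± after a log2 value is the standard error throughout. Groups also stood apart in genes that define the cells. CD34, the stem cell antigen of the KG-1 line, had 12483 to 28951 counts in the 8 control libraries without MK-2206, 0 to 4 in the 6 FOXM1-KD libraries and 7 and 18 in the MK-2206 libraries, which are labelled control. MPO, the myeloid peroxidase, ran the other way, with 5 to 242, 28881 to 155753, and 3888 and 3424 counts. Summed monocyte markers (4 listed, with FCGR3A at 0 in FOXM1-KD DMSO and venetoclax) reached 552 to 2710 CPM in FOXM1-KD libraries and 6.24 to 41.1 CPM in control libraries, MK-2206 included, whereas the erythroid, epithelial and fibroblast lists summed to at most 4.43 CPM, the B cell list to at most 9.91 CPM and the T cell list to at most 11.1 CPM in any library. A difference between genotypes therefore cannot be told apart from a difference between these cultures, and the MK-2206 libraries are set below against both DMSO groups.

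Per kilobase of the canonical transcript, the highest level in control DMSO was that of RNF168 (163 ± 20.7 CPM per kb; SD, n = 2), a ubiquitin ligase of break chromatin, followed by H2AX (107 ± 8.1), NBN (69.0 ± 1.69) and FANCI (54.7 ± 2.69). Neighbours in this order lay further apart than their SDs. The median over the 48 genes was 16.8 CPM per kb. At the other end, RAD50 (0.574 ± 0.062) and ATRIP (0.402 ± 0.077), the partner of ATR, were measured from 25 to 136 counts a library outside the MK-2206 group, which limits the changes detectable for them. RAD50 shares 76.9% of its exon bases with ENSG00000283782 and ATRIP 26.7% with TREX1 on the same strand. TREX1 had 0 counts in all 16 libraries and ENSG00000283782 at most 9, so few or no reads were assigned to those names. Whether reads on the shared bases were assigned to either gene or left out is not given. The low levels of RAD50 and ATRIP per kilobase of full transcript are therefore uncertain. XRCC3 shares 76.7% of its exon bases with KLC1 and TP53BP1 28.8% with TUBGCP4 on the opposite strand, and whether counting used strand is not given, so these values are less certain.

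**Figure D1:**
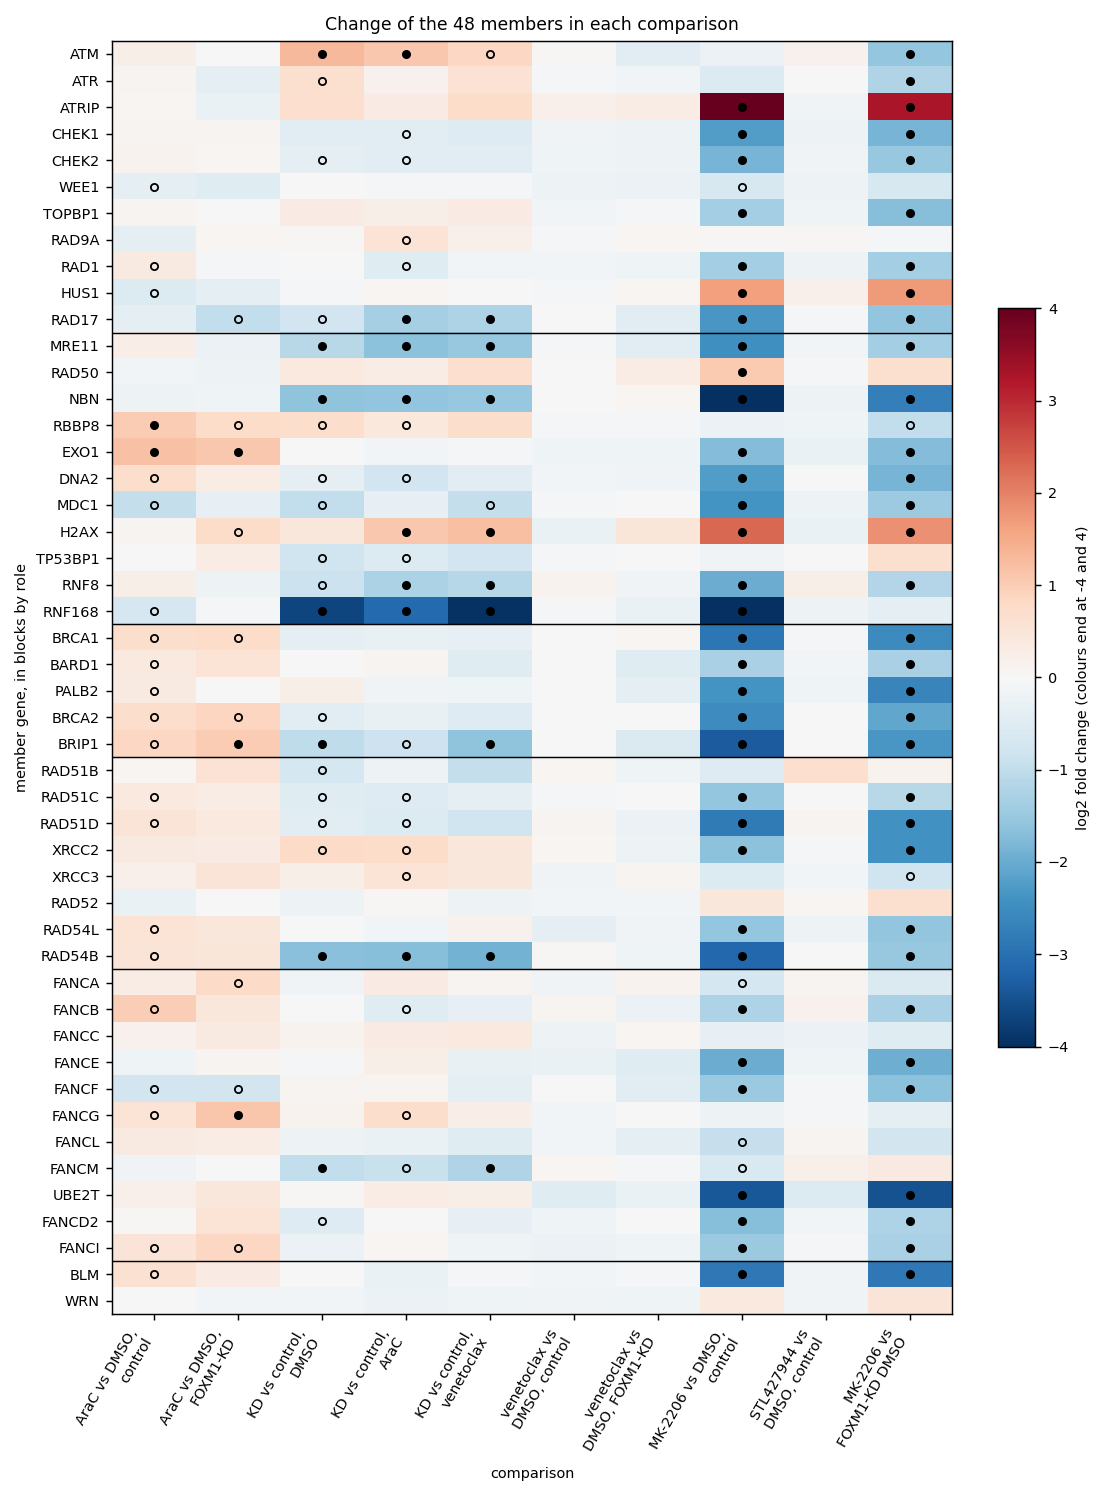
Rows are the 48 genes in blocks by role (from the top: checkpoint; break ends and chromatin; BRCA complexes; further recombination factors; Fanconi; RecQ), columns are the 10 comparisons between groups and colour is the log2 fold change, drawn no further than -4 and 4. Filled circles mark a change of at least 2-fold with adjusted p below 0.1 and open circles adjusted p below 0.1 alone. The MK-2206 columns hold 33 filled circles each. The columns of venetoclax or STL427944 against DMSO hold none, and that of FOXM1-KD against control under venetoclax holds 9.

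AraC was compared with DMSO in each genotype to see how the repair genes answered a block of DNA synthesis. In control cells EXO1 and RBBP8, which both act in the resection of broken ends, were raised past 2-fold, and the 5 BRCA complex genes rose by less. In FOXM1-KD cells EXO1, BRIP1 and FANCG were raised past 2-fold. At the threshold of a 2-fold change with adjusted p below 0.1 (edgeR quasi-likelihood test, Benjamini-Hochberg over all genes tested), 2 of 48 genes were called higher and 0 lower in control cells, where 6.69% of all genes tested were called (4.52% higher and 2.17% lower, and 8.68% in either direction among protein-coding genes with a mean of at least 10 counts). In FOXM1-KD cells 3 were called higher and 0 lower, where 11.6% of all genes were called (9.03% higher and 2.57% lower, and 15.0% among those protein-coding genes). By adjusted p alone, 17 genes rose and 5 fell in control cells (10.2% and 9.17% of all genes tested), and 9 rose and 2 fell in FOXM1-KD cells (10.8% and 5.44%). Among those protein-coding genes the shares were 16.6% and 14.1% in control cells and 15.4% and 8.04% in FOXM1-KD cells. With total counts in place of TMM the FOXM1-KD split of the 48 genes became 13 and 1. DESeq2 called the same numbers at 2-fold, 2 and 3. In control cells 26 members had an unadjusted p below 0.05 in edgeR, as did 5925 of 22842 genes tested. In FOXM1-KD cells 13 members did, and 5277 of 23380 genes tested. Median log2 fold changes of the 48 genes were 0.20 and 0.29, beside 0.01 and -0.01 over the same protein-coding genes. These counts rest on both AraC libraries: without either replicate in control cells 0 genes were called and 0 passed the adjusted p, likewise in FOXM1-KD cells, and without FOXM1-KD DMSO replicate 1 the numbers were 1 and 1. Without either control DMSO library 10 genes passed the adjusted p, without FOXM1-KD DMSO replicate 2 there were 6, and without control DMSO replicate 1 a single member (1) was called. With all 16 libraries in a shared fit 3 genes passed the adjusted p in control cells.

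EXO1 (ENSG00000174371, chromosome 1, 241847967 to 241895148, plus strand), an exonuclease that lengthens resected ends and takes part in mismatch repair, stood at 88.7 and 95.3 CPM in control DMSO and at 198 and 221 CPM in control AraC. In FOXM1-KD cells the values were 79.3 and 101 CPM in DMSO and 186 and 215 CPM in AraC. All 4 AraC libraries lay above all 4 DMSO libraries. The log2 fold change was 1.17 ± 0.13 in control cells (edgeR adjusted p = 1.16e-05) and 1.08 ± 0.26 in FOXM1-KD cells (adjusted p = 0.000843).

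RBBP8 (CtIP; ENSG00000101773, chromosome 18, 22798261 to 23026488), which starts resection together with MRE11, went from 80.5 and 83.1 CPM to 151 and 182 CPM in control cells and from 125 and 141 CPM to 190 and 271 CPM in FOXM1-KD cells. The groups did not overlap in either genotype. It rose by 1.01 ± 0.13 on the log2 scale in control cells (edgeR adjusted p = 8.48e-05) and by 0.72 ± 0.26 in FOXM1-KD cells (adjusted p = 0.0442), the latter short of 2-fold. The other genes of end processing did not move as a block. DNA2, a nuclease-helicase of resection, rose in control cells (0.70 ± 0.14), whereas MRE11 had 0.28 ± 0.14, NBN -0.20 ± 0.13 and RAD50 -0.10 ± 0.22, none past the adjusted p.

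All 5 genes of the BRCA complexes rose in control cells by adjusted p, and 3 of them in FOXM1-KD cells. BRCA1, the ubiquitin ligase that promotes resection and recombination, measured 229 and 249 CPM in control DMSO, 355 and 422 CPM in control AraC, 170 and 196 CPM in FOXM1-KD DMSO and 276 and 367 CPM in FOXM1-KD AraC. Its log2 fold changes were 0.69 ± 0.12 (edgeR adjusted p = 0.00101) and 0.74 ± 0.26 (adjusted p = 0.0345). BRCA2, which acts in recombination after resection, had 181 and 185 CPM against 258 and 347 CPM in control cells and 131 and 134 CPM against 185 and 318 CPM in FOXM1-KD cells. In both genotypes its AraC libraries lay above the DMSO libraries, with 0.71 ± 0.14 and 0.85 ± 0.26 on the log2 scale (edgeR adjusted p = 0.00197 and 0.0113).

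BRIP1 (FANCJ; ENSG00000136492, chromosome 17, 61679139 to 61863559), a helicase bound to BRCA1, rose from 156 and 165 to 257 and 319 CPM in control cells and from 79.0 and 76.6 to 137 and 193 CPM in FOXM1-KD cells. The log2 fold changes were 0.83 ± 0.13 (edgeR adjusted p = 0.000353) and 1.01 ± 0.27 (adjusted p = 0.00238). BARD1, the partner of BRCA1, and PALB2, the bridge between BRCA1 and BRCA2, rose in control cells by 0.40 ± 0.13 and 0.37 ± 0.14, and had 0.54 ± 0.27 and -0.00 ± 0.27 in FOXM1-KD cells without passing the test.

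Among the further recombination factors, RAD51C, RAD51D, RAD54L and RAD54B rose in control cells, by 0.38 to 0.56 on the log2 scale, and 0 of the 8 genes passed in FOXM1-KD cells. At an unadjusted p below 0.05 the numbers were 5 and 0. The log2 values of the 4 genes in FOXM1-KD cells were 0.31, 0.38, 0.46 and 0.48 in the same order, with standard errors of 0.27 to 0.34 against 0.13 to 0.17 in control cells. BLM, a RecQ helicase that dissolves crossed strands, rose in control cells (0.60 ± 0.12, edgeR adjusted p = 0.00348), and WRN, the other RecQ helicase, had 0.01 ± 0.14.

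In the Fanconi group 3 of 11 genes rose and 1 fell in each genotype. FANCG (ENSG00000221829, chromosome 9, 35073835 to 35080004), a scaffold of the core complex, rose from 44.9 and 43.5 to 73.2 and 58.5 CPM in control cells and from 42.4 and 53.7 to 124 and 95.6 CPM in FOXM1-KD cells, by 0.56 ± 0.15 (edgeR adjusted p = 0.0189) and 1.12 ± 0.27 (adjusted p = 0.000889). FANCI rose in both genotypes (0.53 ± 0.11 and 0.83 ± 0.25), FANCB in control cells (0.97 ± 0.18) and FANCA in FOXM1-KD cells (0.77 ± 0.27). FANCF, the adaptor of the core complex, fell in both, from 26.1 and 25.9 to 14.6 and 16.6 CPM and from 29.9 and 25.7 to 17.6 and 17.2 CPM, by 0.75 ± 0.16 and 0.75 ± 0.31 on the log2 scale (edgeR adjusted p = 0.00462 and 0.0902). FANCD2, the ubiquitin acceptor, measured 197 and 197 CPM against 202 and 208 CPM in control cells and 128 and 147 CPM against 209 and 218 CPM in FOXM1-KD cells, where the groups did not overlap but the change of 0.56 ± 0.26 did not pass (edgeR adjusted p = 0.162).

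In the checkpoint block, 1 of 11 genes rose and 2 fell in control cells and 1 fell in FOXM1-KD cells. ATM, the kinase of double-strand breaks, had 0.22 ± 0.12 and -0.01 ± 0.25, ATR, the kinase of stalled forks, 0.10 ± 0.13 and -0.36 ± 0.26, and CHEK1, its effector kinase, 0.12 ± 0.12 and 0.10 ± 0.27 in control and FOXM1-KD cells on the log2 scale, and none passed. The 95% intervals of ATM were -0.05 to 0.48 and -0.49 to 0.47. RAD1 of the sliding clamp rose in control cells (0.35 ± 0.13), its partner HUS1 fell (-0.56 ± 0.15), WEE1, the kinase that restrains CDK1, fell (-0.40 ± 0.12), and RAD17, the clamp loader, fell in FOXM1-KD cells (-0.97 ± 0.30, edgeR adjusted p = 0.0126).

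Among the chromatin factors, MDC1 and RNF168 fell in control cells. MDC1, the adaptor that binds phosphorylated H2AX, went from 257 and 256 CPM to 128 and 138 CPM, a log2 fold change of -0.96 ± 0.12 (edgeR adjusted p = 4.56e-05), while in FOXM1-KD cells it had 117 and 142 CPM in DMSO and 110 and 107 CPM in AraC (-0.33 ± 0.26). RNF168 went from 795 and 952 CPM to 528 and 591 CPM in control cells (-0.66 ± 0.12, edgeR adjusted p = 0.000968). H2AX, the histone that is phosphorylated at breaks, measured 180 and 161 CPM against 207 and 164 CPM in control cells (0.10 ± 0.13), and 169 and 297 CPM against 460 and 352 CPM in FOXM1-KD cells (0.72 ± 0.25, edgeR adjusted p = 0.0368).

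**Figure D2:**
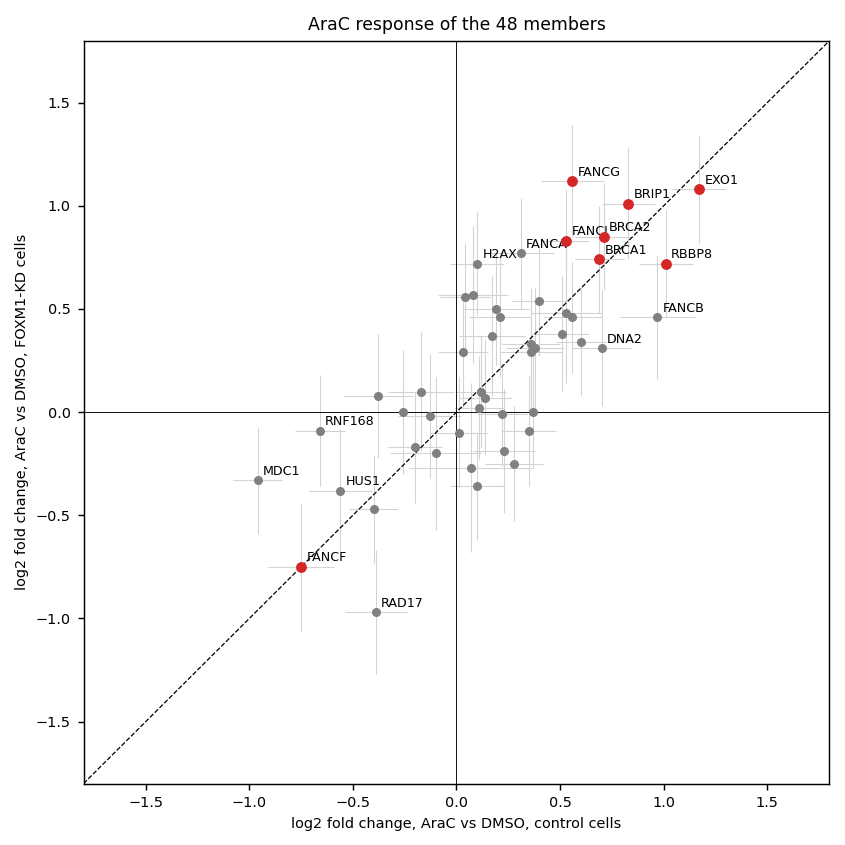
Each point is 1 of the 48 genes, placed by its log2 fold change under AraC in control cells (x axis) and in FOXM1-KD cells (y axis), with bars of 1 standard error and a dashed line of equal response. Red points passed adjusted p below 0.1 in both genotypes: 7 rose (RBBP8, EXO1, BRCA1, BRCA2, BRIP1, FANCG, FANCI) and FANCF fell.

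The 2 AraC responses came from separate libraries. Across the 48 genes they had a Pearson correlation of 0.74 and a Spearman correlation of 0.72, and 38 genes had the same sign in both. This is a description over genes that are not independent replicates, and the same measures over all genes are not given here. Tested directly as an interaction of genotype and drug, 0 of 48 genes were called as differing between the genotypes (edgeR). DESeq2 also called 0 members, and edgeR called 5.13% of all genes tested. An unadjusted p below 0.05 was met by 5 members and by 3493 of 26058 genes tested. By adjusted p alone 2 members passed, MDC1 and H2AX, both higher, and 4.75% of all genes tested were higher. Without FOXM1-KD DMSO replicate 2, 1 gene was called. For the remaining genes no difference in the AraC response was detectable with 2 libraries a group.

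Other lists give the setting of these values. Of 39 further Fanconi, recombination and checkpoint genes, 7 rose and 8 fell in control cells under AraC by adjusted p (median log2 fold change -0.01), and 5 rose and 2 fell in FOXM1-KD cells (0.09). CLSPN, the adaptor between ATR and CHEK1, was called higher in control cells (1.09 ± 0.14). Of 14 end joining genes 2 rose and 6 fell in control cells and 1 rose and 3 fell in FOXM1-KD cells. Of 24 S phase genes 12 rose and 4 fell in control cells and 8 rose in FOXM1-KD cells, with CCNE2 (2.07 ± 0.13 and 2.38 ± 0.29) and RRM2 (1.44 ± 0.12 and 1.54 ± 0.25) called in both. Of 24 mitosis genes 2 rose and 12 fell in control cells, and the median log2 fold change was -0.30 there and -0.02 in FOXM1-KD cells. Of the p53 targets tested, 10 of 24 rose and 1 fell in control cells (median 0.40). In FOXM1-KD cells 9 of 25 rose and 1 fell (median 0.37). Among them CDKN1A was called higher in both (3.37 ± 0.26 and 5.26 ± 0.38). Their part in the results for the 48 genes was not tested.

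FOXM1-KD and control cells were next compared within each treatment, which asks how the same genes differ between these cultures. RNF168, NBN, MRE11 and RAD54B were called lower in DMSO, under AraC and under venetoclax alike, and ATM was higher by adjusted p in all 3, although under venetoclax it did not pass with any 1 library left out. Called genes numbered 1 higher and 6 lower in DMSO, 2 higher and 6 lower under AraC, and 1 higher and 8 lower under venetoclax, where 25.1%, 29.3% and 24.3% of all genes tested were called, so the share of the 48 genes called (7, 8 and 9 of 48) was not above that background. All genes tested were called higher and lower in 11.3% and 13.7% of cases in DMSO, 15.2% and 14.0% under AraC, and 10.8% and 13.5% under venetoclax, and the protein-coding genes in either direction in 33.2%, 36.4% and 36.9%. By adjusted p alone 4 members were higher and 17 lower in DMSO (17.9% and 19.6% of all genes tested), 7 and 16 under AraC (21.9% and 21.4%), and 2 and 9 under venetoclax (11.7% and 14.3%). Among the protein-coding genes these shares were 26.7% and 28.3% in DMSO, 30.2% and 31.7% under AraC, and 19.0% and 21.4% under venetoclax. Median log2 differences of the members were -0.11, -0.13 and -0.25. The venetoclax count fell to 1 without FOXM1-KD venetoclax replicate 1 and to 5 without control venetoclax replicate 2.

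RNF168 (ENSG00000163961, chromosome 3, 196468783 to 196503768, minus strand), whose promoter is printed above, measured 795 and 952 CPM in control DMSO, 528 and 591 in control AraC, and 587 and 1110 in control venetoclax. In FOXM1-KD cells it measured 65.1 and 70.6 CPM in DMSO, 60.3 and 73.5 in AraC, and 47.8 and 63.0 in venetoclax. The lowest control library was thus above the highest FOXM1-KD library by a wide margin in each treatment. Each treatment was fitted separately with its own degrees of freedom, so the sizes of the adjusted p values are not comparable between treatments. The difference was 12.8-fold in DMSO (log2 -3.68 ± 0.15, edgeR adjusted p = 0.00135), 8.59-fold under AraC (-3.10 ± 0.19, adjusted p = 1.24e-58) and 15.3-fold under venetoclax (-3.94 ± 0.39, adjusted p = 1.67e-22), and it was called with any 1 library left out.

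NBN and MRE11, which form the break-sensing complex with RAD50, were lower together. NBN had 324 and 313 CPM in control DMSO and 90.7 and 118 CPM in FOXM1-KD DMSO, and its log2 difference was -1.60 ± 0.17 in DMSO, -1.57 ± 0.19 under AraC and -1.52 ± 0.37 under venetoclax (edgeR adjusted p = 0.00601, 2.73e-15 and 0.000349). MRE11 had 138 and 149 CPM against 72.2 and 59.4 CPM in DMSO, with log2 differences of -1.12 ± 0.13, -1.64 ± 0.20 and -1.52 ± 0.39. RAD50, counted at about 5 CPM, had 0.40 ± 0.19, 0.31 ± 0.27 and 0.66 ± 0.52, none past the adjusted p. Its shared exon bases, given above, limit this comparison with NBN and MRE11. RAD54B, a translocase of recombination, had log2 differences of -1.66 ± 0.21, -1.71 ± 0.25 and -1.90 ± 0.47, from 23.0 and 23.5 CPM to 6.14 and 8.38 CPM in DMSO. It shares 66.0% of its exon bases with FSBP on the same strand, which was itself counted at 2.36 and 2.03 CPM in control DMSO and 0.423 and 0.791 in FOXM1-KD DMSO.

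Also called lower in at least 1 treatment, and lower by adjusted p in all 3, were RAD17, RNF8, BRIP1 and FANCM. In DMSO, AraC and venetoclax in turn, RAD17 had -0.77, -1.34 and -1.25, and RNF8, the ligase upstream of RNF168, -0.85, -1.27 and -1.15. BRIP1 had -1.03, -0.84 and -1.61, and FANCM, the translocase that anchors the Fanconi core, -1.0, -0.89 and -1.19. Passing the adjusted p depended on single libraries for RAD17, RNF8 and FANCM in DMSO and for BRIP1 and FANCM under AraC. Under venetoclax it did so for these 4 genes and for NBN, MRE11 and RAD54B. Together with RNF168, NBN, MRE11 and RAD54B, 8 genes were thus lower by adjusted p in all 3 treatments. Of these 8 genes, RNF8, RNF168, NBN and MRE11 act at break ends or on break chromatin. In that block 7 of 11 genes were lower by adjusted p in DMSO, 3 of them called, and the block median was -0.81. By the same adjusted p, 19.6% of all genes tested and 28.3% of the protein-coding genes were lower.

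ATM (ENSG00000149311, chromosome 11, 108223044 to 108369102, plus strand) went the other way. It stood at 208 and 186 CPM in control DMSO and at 513 and 448 in FOXM1-KD DMSO, at 215 and 248 against 434 and 569 under AraC, and at 195 and 208 against 302 and 410 under venetoclax, and the genotypes did not overlap in any treatment. The log2 differences were 1.30 ± 0.12 (edgeR adjusted p = 0.00477), 1.08 ± 0.17 (adjusted p = 3.27e-09) and 0.82 ± 0.36 (adjusted p = 0.0881), the last short of 2-fold. Leaving out each of the 4 venetoclax libraries in turn gave 0.58 to 1.02, with an adjusted p of 0.1 or more in 4 of 4 cases. ATR was higher in DMSO (0.63 ± 0.12, adjusted p = 0.0231) and had 0.18 ± 0.20 and 0.59 ± 0.38 under the drugs.

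H2AX was called higher under AraC (1.09 ± 0.18, edgeR adjusted p = 6.4e-09) and venetoclax (1.20 ± 0.36, adjusted p = 0.00644). In DMSO its 2 FOXM1-KD libraries stood at 169 and 297 CPM, the lower of them inside the control range of 161 to 180, and the difference of 0.46 ± 0.31 did not pass. CHEK1 was lower under AraC (-0.42 ± 0.20, adjusted p = 0.0785) with -0.41 ± 0.18 and -0.51 ± 0.38 in DMSO and venetoclax. BRCA1 had -0.37 ± 0.13, -0.31 ± 0.17 and -0.33 ± 0.36 without passing, BRCA2 was lower in DMSO (-0.46 ± 0.09, adjusted p = 0.03), and FANCD2 was lower in DMSO (-0.51 ± 0.12, adjusted p = 0.0445) with 0.02 ± 0.18 under AraC. With the replicate number of the labels as a block, BRCA1 and BRCA2 were also lower under AraC (-0.32 and -0.34) and ATR higher (0.17), and under venetoclax CHEK1 and BRCA2 were lower (-0.49 and -0.50) and ATR higher (0.58), all past the adjusted p.

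**Figure D3:**
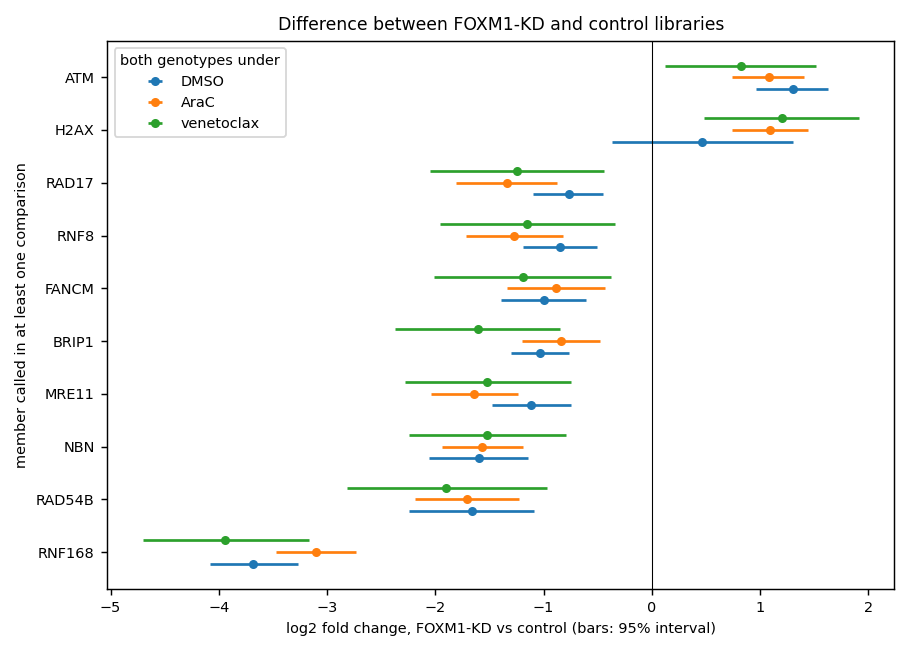
Each row is 1 of the 10 genes called in at least 1 of the 3 genotype comparisons; points are log2 fold changes of FOXM1-KD against control in DMSO (blue), AraC (orange) and venetoclax (green), with 95% intervals. RNF168 lies between -3.94 and -3.10 in all 3, ATM between 0.82 and 1.30, and the interval of H2AX in DMSO spans 0.

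The 3 genotype comparisons used separate libraries of the same 2 cultures. The values of the 48 genes correlated between them with Pearson coefficients of 0.91 to 0.96 and Spearman coefficients of 0.86 to 0.93, as a description. The sign was the same in all 3 for 37 genes. The same measures over all genes are not given here, so this agreement is not shown to be particular to the 48 genes. The loss of CD34 and the rise of MPO and of monocyte markers given above moved with the genotype in every treatment, and their part in these differences was not tested. Of the 39 further pathway genes 2 were called higher and 1 lower in DMSO, where RPA1, a subunit of the single-strand binding protein, was lower (-1.55 ± 0.19) and TIMELESS, a fork protection factor, higher (1.11 ± 0.15). Of 14 end joining genes 3 were called lower in DMSO, among them PRKDC (-1.38 ± 0.18) and LIG4 (-1.38 ± 0.20).

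The MK-2206 libraries were compared with control DMSO, from which they also differed in time, and with FOXM1-KD DMSO because of the marker genes above. The 2 comparisons share the MK-2206 libraries. Against control DMSO 4 of the 48 genes were called higher and 29 lower, where 44.0% of all genes tested were called (26.0% higher and 17.9% lower). Against FOXM1-KD DMSO 3 were called higher and 30 lower, where 36.8% were called (22.2% and 14.6%). Over protein-coding genes with a mean of at least 10 counts, the background nearer to these members, 33.7% and 28.4% were called lower. The median log2 fold change of the members was -1.50 and -1.30, beside -0.29 and -0.23 for those protein-coding genes. With the size factors of DESeq2 the first pair was -1.39 and -0.18, and with total counts -1.71 and -0.51.

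NBN was at 12.6 and 17.7 CPM in the MK-2206 libraries, below every other library, and its log2 fold change was -4.32 ± 0.31 against control DMSO (edgeR adjusted p = 1.54e-43) and -2.75 ± 0.39 against FOXM1-KD DMSO (adjusted p = 3.26e-11). UBE2T, the ubiquitin-conjugating enzyme of the Fanconi pathway, was at 2.00 and 2.66 CPM, from 14 and 23 counts, against 25.3 and 26.9 CPM in control DMSO and 22.5 and 31.1 in FOXM1-KD DMSO (-3.40 ± 0.38 and -3.48 ± 0.48). Against control and FOXM1-KD DMSO in turn, the log2 fold change of BRIP1 was -3.34 ± 0.30 and -2.34 ± 0.39, that of RAD54B, from 16 and 23 counts, -3.15 ± 0.38 and -1.52 ± 0.52, and that of BRCA1 -2.90 ± 0.29 and -2.56 ± 0.37. BRCA1 stood at 19.3 and 41.4 CPM there. The 5 genes of the BRCA complexes were all called lower against both references, with BRCA2 at -2.52 ± 0.29 and -2.09 ± 0.37.

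In the other blocks, 5 of the 8 further recombination factors, 6 of 11 Fanconi genes, 7 of 11 break-end genes, 5 of 11 checkpoint genes and BLM were called lower against control DMSO. Examples with log2 values against control and FOXM1-KD DMSO were RAD51D (-2.84 and -2.42), BLM (-2.86 and -2.87), CHEK1 (-2.25 and -1.87), FANCD2 (-1.71 and -1.23) and EXO1 (-1.73 and -1.74). A set of 28 genes was called lower against both references, in comparisons that share the MK-2206 libraries. The share of all genes called lower against both is not given here.

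RNF168 differed between the references. The MK-2206 libraries held 39.4 and 62.3 CPM, 16.3-fold below control DMSO (-4.03 ± 0.28, edgeR adjusted p = 3.15e-46), but the difference from FOXM1-KD DMSO was -0.38 ± 0.36, with a 95% interval of -1.08 to 0.33 (adjusted p = 0.433). ATM stood at 95.3 and 224 CPM, with -0.22 ± 0.26 against control DMSO (95% interval -0.74 to 0.29) and -1.55 ± 0.35 against FOXM1-KD DMSO (adjusted p = 7.23e-05). The value of ATM against control DMSO rests on both MK-2206 libraries: it was 0.23 without replicate 1 and -1.01 without replicate 2, where it passed the adjusted p of edgeR. ATR was likewise called lower against FOXM1-KD DMSO (-1.20 ± 0.36) and had -0.54 ± 0.28 against control DMSO.

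ATRIP, H2AX and HUS1 were called higher against both references. ATRIP (ENSG00000164053, chromosome 3, 48446710 to 48467645) was counted 222 and 207 times after MK-2206 and 25 to 65 times in every other library, or 31.7 and 23.9 CPM against 1.59 to 3.82 CPM. Its log2 fold change was 3.98 ± 0.37 (edgeR adjusted p = 3.93e-26) and 3.28 ± 0.45 (adjusted p = 7.32e-12), with the limit that it shares exon bases with TREX1. H2AX (ENSG00000188486, chromosome 11, 119093874 to 119095465, minus strand) was at 1030 and 588 CPM against 161 to 180 CPM in control DMSO and 169 to 297 CPM in FOXM1-KD DMSO, by 2.31 ± 0.25 and 1.82 ± 0.35. HUS1 was at 79.4 and 105 CPM against 31.2 and 31.7, and 29.2 and 29.4, by 1.63 ± 0.29 and 1.69 ± 0.37. RAD50 was called higher against control DMSO (1.06 ± 0.37, from 69 and 78 counts) and had 0.63 ± 0.46 against FOXM1-KD DMSO, which did not pass. RAD9A, the third subunit of the clamp, had 0.05 ± 0.30 and -0.04 ± 0.39.

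**Figure D4:**
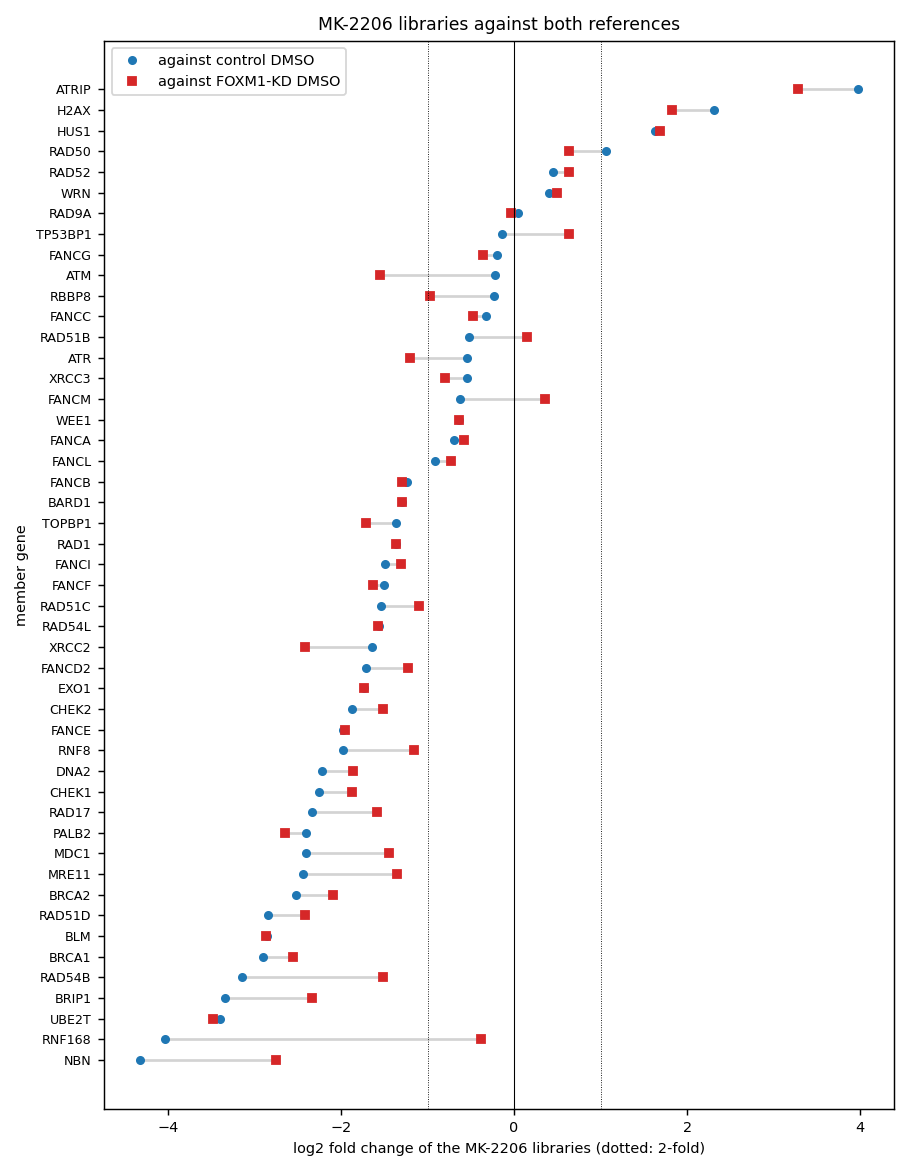
For each of the 48 genes, ordered by the first value, the log2 fold change of the MK-2206 libraries against control DMSO (blue circles) and against FOXM1-KD DMSO (red squares) is joined by a grey line; dotted lines mark 2-fold. Most genes lie left of -1 on both, RNF168 moves from -4.03 to -0.38, and ATRIP, H2AX and HUS1 lie right of 1 on both.

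Genes of cell division were lower in the same libraries. Against control DMSO 18 of 24 S phase genes and 21 of 24 mitosis genes were called lower, with medians of -2.26 and -2.02, as were 23 of the 39 further pathway genes (median -1.18) and 8 of 14 end joining genes (-1.31). Examples were RPA1 (-5.15 ± 0.33), PRKDC (-4.28 ± 0.24) and the helicase subunit MCM4 (-4.61 ± 0.27). Of 26 p53 targets 10 were called higher and 5 lower (median 0.30). CDKN1A, the p53 target that stops CDKs, was higher by 9.82 ± 0.38. The low depth, the mitochondrial share, the larger number of genes with a count and the marker genes of the MK-2206 libraries moved with these values. Their part in the changes, lower and higher, was not tested. In bulk RNA, fewer cells in a cycle phase and less transcript per cell cannot be told apart.

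Venetoclax and STL427944 were compared with DMSO at 48 h, and 0 of the 48 genes were called in any of these comparisons. For venetoclax in control cells 0% of all genes tested were called (edgeR; 188 had an unadjusted p below 0.05 and 0 were called by DESeq2), 0 members had an unadjusted p below 0.05, and log2 fold changes of the members lay between -0.48 and 0.21. In FOXM1-KD cells they lay between -0.57 and 0.49, with 0 members called by DESeq2, where edgeR called 2.09% of all genes tested. At an unadjusted p below 0.05 there were 0 members and 1611 of 23717 genes tested. For STL427944 the range was -0.55 to 0.66, 0 members had an unadjusted p below 0.05, 0% of all genes tested were called by edgeR (281 had an unadjusted p below 0.05) and 1 gene, not a member, by DESeq2. Without STL427944 replicate 1 there were 2 members called. The venetoclax response did not differ detectably between the genotypes for any member (0 called, 0 by DESeq2, where 0.743% of all genes tested were called). At an unadjusted p below 0.05 there were 0 members and 1248 of 26393 genes tested.

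The spread in these groups was wide. Replicate 2 was above replicate 1 for 36 of 48 genes in control venetoclax, with a median ratio of 1.34, and below it for 36 of 48 genes in control STL427944, with a median ratio of 0.846, whereas in control DMSO the ratios had a median of 1.00 and ran from 0.806 to 1.31. RNF168 shows it, with 587 and 1110 CPM in control venetoclax and 917 and 606 CPM in control STL427944 around 795 and 952 CPM in control DMSO. The 95% intervals of its log2 fold changes were -0.74 to 0.67 and -0.79 to 0.41, and changes within such intervals were not detectable here. BRCA1 had 198 and 282 CPM in control venetoclax and 228 and 221 in control STL427944, H2AX 129 and 155, and 176 and 106, and ATM 195 and 208, and 209 and 228.

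**Figure D5:**
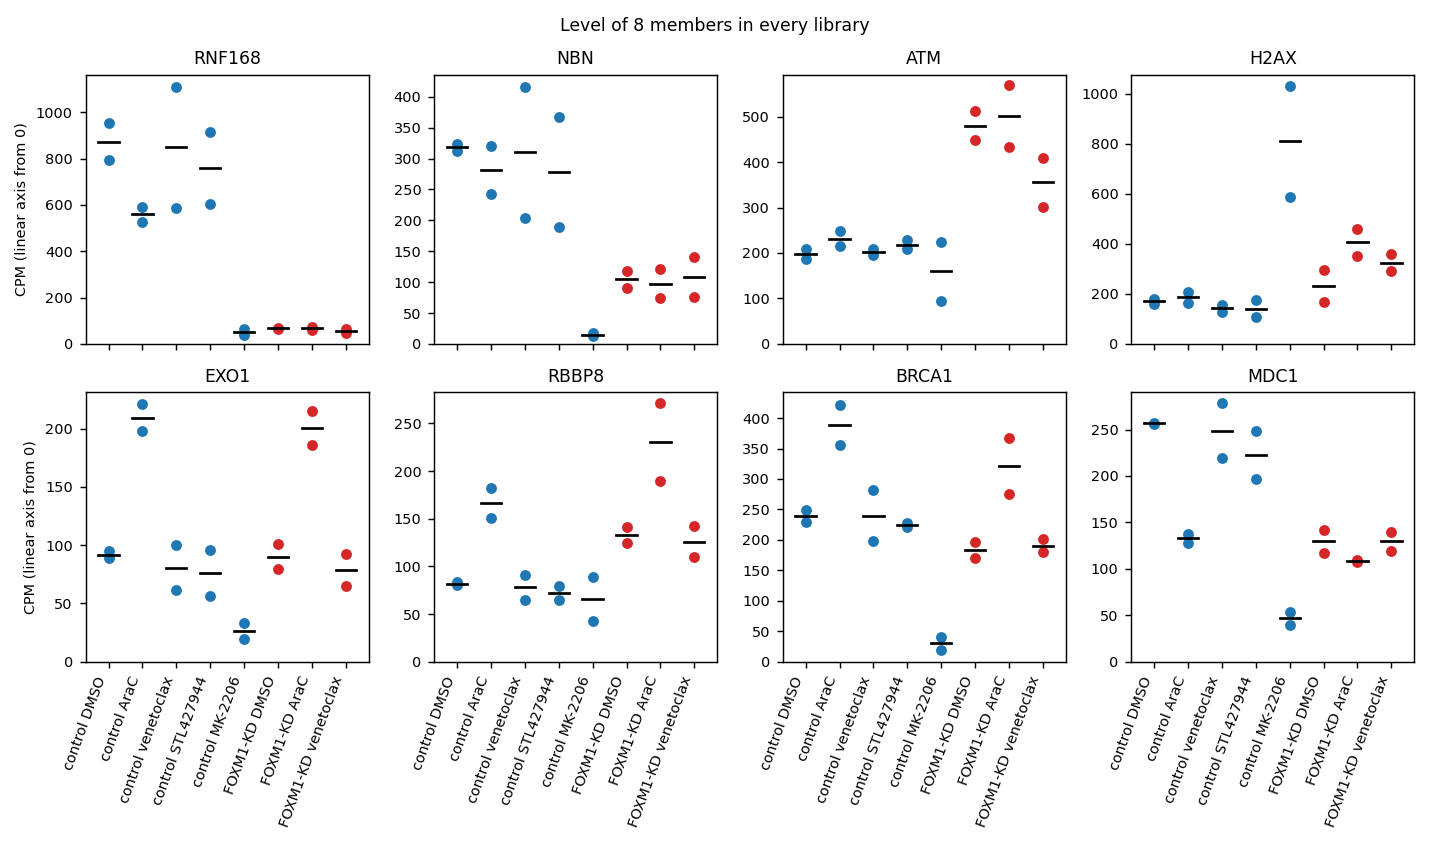
CPM on a linear axis from 0 for 8 genes in all 16 libraries (blue, control; red, FOXM1-KD; bars, group means of 2 libraries). EXO1, RBBP8 and BRCA1 are raised in both AraC groups, RNF168 is low in the 3 FOXM1-KD groups and under MK-2206, ATM is high in the FOXM1-KD groups, and H2AX is highest under MK-2206.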

How the data were processed

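RNA-seq of 16 KG-1 libraries, 8 groups of 2, was used as deposited. Per the study's methods and the labels, the authors aligned reads to hg38 with STAR and counted Ensembl genes with featureCounts; the deposited values are raw counts per gene, and the strand setting, the use of molecular identifiers and software versions are not given in the sources used here. The 37 Y copies of pseudoautosomal genes (1 count) were left out. Genes with at least 1 count in the fitted libraries were tested in edgeR 4.0.16 (R 4.3.3, TMM, quasi-likelihood test, Benjamini-Hochberg adjustment), using the libraries of each comparison. Called means a 2-fold change with adjusted p below 0.1. Each comparison had its own fit and degrees of freedom, so sizes of adjusted p, and numbers passing it, are not directly comparable between comparisons. Scripts were tested on simulated data. DESeq2 1.42.0, other scalings, filters and thresholds, a shared fit, a replicate block and leaving out each library were alternatives. The labels number the replicates of the MK-2206, AraC and venetoclax groups but state no pairing, and DMSO and STL427944 carry no number. Differences between replicates 1 and 2 correlated between the numbered groups (10 group pairs, r = 0.357 to 0.567 over 12583 genes). The main tests used no pairing. The study describes the libraries of a group as biological replicates; the labels name no separate cultures. The members and lists, and the rule naming every called member and 7 genes in all conditions (ATM, ATR, CHEK1, BRCA1, BRCA2, FANCD2, H2AX), were chosen with earlier results of these data known.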

Additional observations from a re-analysis of the deposited data

Results flagged for a closer look

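MDC1 and H2AX passed the adjusted p in the test of genotype and drug together, 2 of 48 genes, both higher. Of all genes tested 4.75% were higher by the same rule, and 8.49% of protein-coding genes with a mean of at least 10 counts. The number of members was thus not above that background. The difference (FOXM1-KD minus control) was 0.72 ± 0.26 for MDC1 (edgeR adjusted p = 0.0895) and 0.71 ± 0.25 for H2AX (adjusted p = 0.0776) on the log2 scale, below 2-fold in both. MDC1 fell in control cells and its FOXM1-KD libraries were already low in DMSO, and H2AX rose in FOXM1-KD cells, where its DMSO libraries lay at 169 and 297 CPM. With each of the 8 libraries left out in turn the differences ran from 0.58 to 0.77 for MDC1 and from 0.35 to 1.02 for H2AX, and the adjusted p was 0.1 or more in 7 of 8 cases for each.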

How the results depend on the processing

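Across 188 gene results and their alternatives, 1721 of 2119 values kept their direction and side of the adjusted p threshold, whatever their fold change. Another 338 no longer passed the adjusted p, 47 newly passed it and 13 changed sign. Numbers of called members moved by more than 1.5 times as follows. Without the 2-fold threshold they were 22 and 11 for AraC in control and FOXM1-KD cells, 21 and 23 for FOXM1-KD against control in DMSO and AraC, and 2 for the difference of the AraC responses. Members changed by AraC numbered 3 in control cells with all 16 libraries in a shared fit and 42 in each genotype with the adjusted p across all 8 groups, which tests any difference among groups. Leaving out each library in turn, called members ranged from 0 to 3 for AraC in control cells, 0 to 4 for AraC in FOXM1-KD cells, 1 to 9 for FOXM1-KD against control under venetoclax, 0 to 2 for STL427944 and 0 to 1 for the difference of the AraC responses; changed members ranged from 0 to 10 and 0 to 6 under AraC in control and FOXM1-KD cells. A lone remaining library was assumed to vary like the others.

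All values that changed sign were small and uncalled. In the AraC comparisons they were H2AX in control cells without control AraC replicate 1 (-0.07), ATM in FOXM1-KD cells with total counts (0.15), with all libraries (0.06), without DMSO replicate 1 (0.07) and without AraC replicate 1 (0.18), and CHEK1 without DMSO replicate 1 (-0.12) and without AraC replicate 2 (-0.12); over all libraries left out these 3 ranged up to 0.29, from -0.23 and up to 0.35. In the genotype comparisons they were H2AX in DMSO without FOXM1-KD DMSO replicate 2 (-0.01), ATR (-0.04) and FANCD2 (-0.01) under AraC without FOXM1-KD AraC replicate 2, BRCA2 under AraC without FOXM1-KD AraC replicate 1 (0.03) and BRCA2 under venetoclax without control venetoclax replicate 2 (0.01), while the other ends of their ranges were 0.78, 0.38, 0.07, -0.75 and -0.97. ATM under MK-2206 ranged from -1.01 to 0.23, the latter without replicate 1. The cause was not tested. With the replicate block, 8 and 9 members were called for FOXM1-KD against control under AraC and venetoclax, as without it. Among the named genes ATR, BRCA1 and BRCA2 under AraC gained an adjusted p below 0.1. Under venetoclax ATR, CHEK1 and BRCA2 gained it, and no other named gene changed side of that threshold. With 2 libraries a group, low counts limit ATRIP, RAD50, RAD54B and UBE2T most.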
